A study of Mus musculus with 4 samples.

Results

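The genes described are the Fcγ receptors of the mouse and the chain through which the activating ones signal: Fcgr1, Fcgr3, Fcgr4, Fcgr2b and Fcer1g, 5 of the 19059 genes counted, chosen by name and not by their values. They were followed, cell by cell, in the RNA of leukocytes sorted by CD45 from MC38 tumors, a transplanted mouse colon carcinoma, across cell classes gated on marker genes that include none of the 5. Hosts in all 4 groups were C57BL/6 mice that carry human CTLA-4 (B-hCTLA-4), inoculated under the skin with 500000 MC38 cells and treated 3 times from a tumor size of about 100 mm3, and tumors of 11 mice per group were pooled into 1 library on day 8, all in batch 1. The isotype control group received human IgG1 at 10 mg/kg, and the combination received ipilimumab, a human IgG1 against CTLA-4, at 10 mg/kg together with AT130-2 in a mouse IgG1-N297A format, an antibody against mouse FcγRII, at 20 mg/kg. The other two libraries are labelled in conflict: title and treatment field name different antibodies. Which of them received ipilimumab alone is not settled, so they are called single antibody A (title anti-human CTLA-4) and single antibody B (title anti-mouse FcγRII). With 1 library per group, a group and its library cannot be told apart, no test was possible, and every interval below is a 95% interval of counting error only. Values of the 4 libraries are always given in the order isotype control, single antibody A, single antibody B and combination.

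Fcγ receptors bind the constant part of IgG. In the mouse, FcγRI (Fcgr1), FcγRIII (Fcgr3) and FcγRIV (Fcgr4) are activating: they pair with the common γ chain encoded by Fcer1g, whose cytoplasmic activating motif is phosphorylated by Src-family kinases and recruits Syk. FcγRIIB (Fcgr2b) is the only inhibitory receptor of the family. It carries its own inhibitory motif, which recruits the phosphatase SHIP1 (Inpp5d) and dampens signals started by the activating receptors on the same cell. The level of activating receptors relative to FcγRIIB is known to affect how strongly a macrophage responds to a tumor cell or T cell coated with IgG. Only RNA was counted here, and neither receptor protein nor receptors free of antibody were measured.

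In the GENCODE vM21 annotation of GRCm38, 4 of the genes lie within 1 region of chromosome 1: Fcgr2b at chr1:170958617-170976547 (minus strand), Fcgr4 at chr1:171018920-171029761 (plus), Fcgr3 at chr1:171051174-171064935 (minus) and Fcer1g at chr1:171229572-171234365 (minus). Fcgr1 lies apart, at chr3:96282909-96293969 (minus). All are protein-coding. The motifs that separate inhibition from activation are printed here as coding DNA of the first listed transcript of each gene, with the codons of the phosphorylated tyrosines in capitals. The Fcgr2b stretch covers bases 940 to 972 of the coding sequence, and the Fcer1g stretch bases 184 to 240.
Fcgr2b inhibitory motif: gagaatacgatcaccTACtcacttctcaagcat
Fcer1g activating motif: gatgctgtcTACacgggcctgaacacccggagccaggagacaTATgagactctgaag
The inhibitory motif holds 1 tyrosine codon and is present in 4 of 4 complete coding transcripts of Fcgr2b, whereas the activating motif holds 2 tyrosine codons, 30 bases apart. The exact Fcer1g stretch as printed is present in 1 of 2 coding transcripts, and the other transcript was not searched for the motif.

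Fcgr2b and Fcgr3 share much of the sequence that encodes their IgG-binding part, which matters for an assay that counts hybridized probes. Of the 971 windows of 50 bases along the coding sequence of Fcgr2b, 463 matched Fcgr3 at 45 or more positions without a gap, and 166 matched it at all 50. The longest run shared without a mismatch was 129 bases. A stretch of 90 bases from each, with the base that differs in capitals, shows how alike the genes are.
Fcgr2b, coding bases 268 to 357: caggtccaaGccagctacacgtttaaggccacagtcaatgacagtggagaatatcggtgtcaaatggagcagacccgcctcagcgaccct
Fcgr3, coding bases 253 to 342: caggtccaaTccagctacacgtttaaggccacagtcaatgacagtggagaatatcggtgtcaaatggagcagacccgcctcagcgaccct
No other pair of the 5 genes had a window of 50 bases with 45 matches. The probe sequences were not analysed here, so how far a probe of one of these genes could count RNA of the other was not tested by sequence. Their levels in NK cells and B cells are given below.

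The libraries held 6097 to 8173 cells and 129151823 to 196362818 UMIs. Of 28290 cells, 28194 were kept, and a UMI of Ptprc, which encodes CD45, was found in 96.2% to 97.7% of the kept cells of each library. No full barcode was shared between libraries, while 712 to 1148 barcodes of each pair had the same first 16 bases. Gates on marker genes found 12455 macrophages, 1805 monocytes, 527 nonclassical monocytes, 436 neutrophils, 999 NK cells or ILC1, 1265 T cells, 271 Cd209a DC, 133 mast cells or basophils and 29 B cells. Cells with markers of macrophages and of T cells (3498) or NK cells (729) were set aside, and same-type doublets cannot be seen by such gates. Mixtures of T cells, NK cells or neutrophils with monocytes were not gated out. A further 1786 cells without markers of another lineage held few macrophage and few monocyte markers, 851 of them in the combination, and they are reported separately.

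A level is the number of UMIs of a gene in all cells of a class, per 1000000 UMIs of the class. In a probe-based assay they depend on the probes of a gene, so levels are compared between classes and libraries and never between genes. Fcer1g was plentiful in most leukocyte classes. Its level was 3494 to 3715 in macrophages across the 4 libraries, the highest of 13 classes. Nonclassical monocytes (2810 to 2868), monocytes (2711 to 2993), NK cells or ILC1 (2431 to 2827), neutrophils (1989 to 2877) and mast cells or basophils (2079 to 2307) followed, and the ranges of each neighbouring pair among these 5 classes overlapped. NK cells and mast cells, in which activating NK receptors and the IgE receptor also use the chain, were thus among the classes rich in it.

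Among the activating receptors, Fcgr1 encodes the high-affinity one, known from macrophages. Its level was 701 to 773 in monocytes and 626 to 771 in macrophages, ranges that overlap, and 233 to 391 in Cd209a DC. In NK cells or ILC1 it was 6.82 to 39.7, and in B cells 0 UMIs were counted among all 115254. With 3 UMIs taken as the limit, a rule apart from the exact intervals used elsewhere, this allows a level of up to 26.0. Fcgr3, the low-affinity receptor, was highest in neutrophils, at 1351 to 1717, above macrophages at 1084 to 1240.0 and monocytes at 972 to 1080.2, with no overlap between these neighbours. This order is per UMI of a class and not per cell: the median depth was 3334.5 UMIs in neutrophils and 21113 in macrophages. Fcgr3 was also found in mast cells or basophils, at 319 to 500, and NK cells or ILC1, at 160 to 244. Fcgr4, a receptor known from neutrophils and nonclassical monocytes as well as macrophages, was at 355 to 720 in neutrophils, 469 to 822 in macrophages and 258 to 556 in nonclassical monocytes, and these ranges overlapped.

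Among the 13 classes, Fcgr2b was highest in macrophages, at 1069 to 1234, followed by monocytes at 744 to 1089 and Cd209a DC at 540.0 to 911, with overlapping neighbours. B cells, in which Fcgr2b is known as the sole Fcγ receptor, held 27 UMIs of Fcgr2b in 29 cells, a level of 155 to 276 in the 4 libraries. In the same B cells, 20 of the 22 UMIs of Fcgr3 came from the isotype control library, and the other three libraries held 1, 0 and 1. In NK cells or ILC1 the Fcgr2b level was 28.5 to 61.4, which is 2.35% to 5.74% of that of macrophages in the same library. The Fcgr3 level in these NK cells was 13.4% to 22.5% of the macrophage level. In B cells of isotype control, Fcgr2b was at 21.4% and Fcgr3 at 36.9% of the macrophage level. In B cells of the other libraries, Fcgr2b was at 12.9% to 25.8%, from 4 to 6 UMIs each, and Fcgr3 at 0% to 4.25%. So few UMIs, with 1 library going the other way, do not show whether the paired genes were counted apart in B cells.

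**Figure D1:**
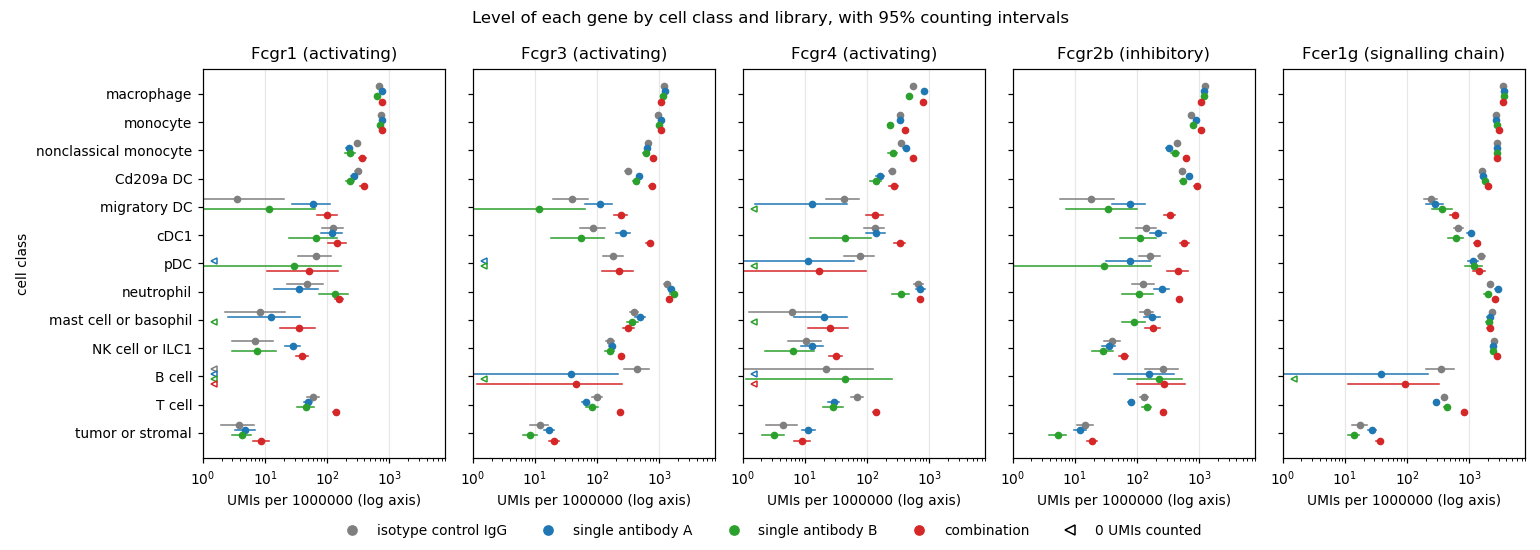
Level of the 5 genes (UMIs per 1000000, log axis) in 13 cell classes, 1 point per library with its 95% counting interval, and open triangles where 0 UMIs were counted. Fcer1g lies between 1989 and 3715 in macrophages, monocytes, nonclassical monocytes, neutrophils, NK cells and mast cells, while Fcgr1 reaches 626 to 773 only in macrophages and monocytes.

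T cells were taken as a reference class with little RNA of these receptors. Whether some T cells express the genes themselves was not tested. They held Fcgr2b at 130.3, 80.2, 142 and 263, Fcgr3 at 99.8, 65.6, 84.1 and 235, and Fcer1g at 401, 293, 439 and 835. The combination stood highest in T cells for all 5 genes, and T cells of the combination had 17.6% to 24.6% of the macrophage level of each receptor gene, against 8.36% to 12.4% in isotype control. Macrophage marker RNA (9 genes) in these T cells was 1.15% of that in macrophages in the combination and 0.992% in isotype control, a value that the gate itself holds low. The T cell gate did not limit monocyte markers, and the part of mixtures with monocytes in these T cell values was not tested. Levels at or below those of T cells in the same library are called within background here. This is a convention and not a floor, since Fcgr2b was lower in NK cells or ILC1 than in T cells in every library. By that measure Fcgr2b in NK cells or ILC1 was background in all 4 libraries, and their Fcgr3, at 160.3, 176, 160.2 and 244, was above T cells clearly outside the combination and hardly in it. Fcgr2b in B cells, at 264, 155, 224 and 276, was above T cells in each library, again hardly in the combination. These B cell values rest on 12, 4, 5 and 6 UMIs, too few to place them clearly above T cells. Tumor or stromal cells, at 5.39 to 18.9 for Fcgr2b, lay lower still. This order is per UMI and not per cell: the median depth was 78928 UMIs in these cells and 4989 in T cells.

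In macrophages, by far the largest class, all 5 genes were found in nearly every cell: of 12455 cells, 99.6% had a UMI of Fcgr3, 99.2% of Fcgr2b, 98.0% of Fcgr1, 93.8% of Fcgr4 and 99.97% of Fcer1g, at a median of 21113 UMIs per cell. Since depth differed between libraries (median 17630 in isotype control and 24923 in the combination), shares were also computed for cells drawn down to 2000 UMIs. The expected share with Fcgr4 was then 55.8%, 66.3%, 47.5% and 69.6%, against 5.24%, 2.31%, 1.97% and 9.55% in T cells. For Fcgr2b it was 83.9%, 84.4%, 84.0% and 80.3%, against 7.50%, 5.57%, 6.90% and 12.1% in T cells. Most macrophages thus held both the inhibitory gene and activating ones.

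Of the 5 genes, Fcgr4 differed most between the macrophages of the libraries. Its level was 558, 822, 469 and 786. The combination stood at 1.41 times (1.39 to 1.43) isotype control and single antibody A at 1.47 times (1.46 to 1.49), whereas single antibody B stood lower, at 0.841 times (0.829 to 0.853). Fcgr1 differed in the same directions by less: it was at 691, 763, 626 and 771, or 1.11 times isotype control in the combination. Both genes were thus higher in the combination and single antibody A than in the other two libraries.

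Fcgr2b stood lowest in the combination. Its level was 1234, 1206, 1212 and 1069, and the combination was at 0.866 times (0.858 to 0.875) isotype control, while single antibodies A and B were at 0.977 (0.968 to 0.986) and 0.982 (0.973 to 0.990) times. Fcgr3 was at 1194, 1240.0, 1137 and 1084, lowest in the combination per total UMIs (0.908 times, 0.899 to 0.917). Fcer1g was at 3566, 3715, 3596 and 3494 and differed least by that scaling (0.980 times, 0.974 to 0.985). Size factors over total UMIs, relative to isotype control, were 0.965, 0.982 and 0.924 in single antibodies A and B and the combination. The order of the libraries for Fcgr3 is thus read per total UMIs only. The median gene stood at 0.929 in the combination over isotype control, and when libraries were scaled by median-of-ratios size factors in place of the total, Fcer1g turned to 1.06, Fcgr3 came to 0.983, Fcgr2b to 0.938, Fcgr4 to 1.53 and Fcgr1 to 1.21.

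These differences are modest beside those of other genes. With levels per total UMIs, none of the 5 genes reached a 1.5-fold difference from isotype control in macrophages of the other libraries. With size factors, applied to levels of the combination only, Fcgr4 passed it at 1.53 times. Fcgr4 of single antibody A stood at 1.47 times per total UMIs. The size factor of that library over its total UMIs was 0.965 times that of isotype control, against 0.924 in the combination. Its scaled level was not computed, so passing 1.5-fold is not read as particular to the combination. The shares that follow are for levels per total UMIs. Of the 7410 genes at 20 UMIs per 1000000 or more in macrophages of a library, 3.44% stood at least 1.5-fold higher and 3.04% at least 1.5-fold lower in the combination. For single antibody A these shares were 0.661% and 0.324%, and for single antibody B 0.472% and 0.702%.

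Monocytes are the blood-derived precursors of tumor macrophages, and their Fcgr2b stood highest in the combination, opposite to macrophages. It was at 744, 878, 790.4 and 1089, or 1.46 times isotype control (1.40 to 1.53). The expected share of monocytes with Fcgr2b at 2000 UMIs was 62.2%, 64.9%, 59.9% and 73.7%. Fcgr4 was at 341, 338, 233 and 409, lowest for single antibody B as in macrophages. Fcgr1 was at 734, 773, 701 and 757, and the interval of its ratio included 1 (1.03 times, 0.985 to 1.08). None of the 5 reached 1.5-fold, where 4.89% of 7034 genes stood higher and 3.98% lower by that measure. The macrophage list stood at 14.6 and 13.6 UMIs per 10000 in monocytes of isotype control and the combination, against 353 and 313 in macrophages.

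Nonclassical monocytes, the patrolling cells known to carry FcγRIV, held Fcgr4 at 352, 421, 258 and 556 and Fcgr2b at 435, 323, 407 and 625, both highest in the combination. Their balance was 3.05, 4.01, 2.74 and 2.76, and the combination was at 0.904 times isotype control, with an interval (0.794 to 1.03) that includes 1.

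Cells between monocytes and macrophages showed neither pattern for Fcgr2b. In 1985 intermediate cells, with a macrophage list above the limit for monocytes and outside the gate for macrophages, Fcgr2b was at 1385, 1405, 1466 and 1410, and the combination stood at 1.02 times (0.993 to 1.04) isotype control. Fcgr4 was still higher in the combination (698 against 588). In the cells with few macrophage and monocyte markers, Fcgr2b stood above macrophages as a whole and above intermediate cells in each library, at 1405, 1528, 1520.2 and 1597.

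Neutrophils carried Fcgr3 and Fcgr4 with little Fcgr1. Their number was 61, 56, 33 and 286, and their Fcgr3 level, 1351, 1535, 1717 and 1446, and Fcgr4 level, 673, 720.4, 355 and 700.0, did not single out the combination. Fcgr2b in neutrophils was at 127, 253, 107 and 482, from 27, 51, 13 and 619 UMIs. In isotype control and single antibody B it lay below the T cell level of the same library, that is, within background by the T cell measure, while single antibody A (253 against 80.2) and the combination (482 against 263) lay above it. That measure is per UMI, and the median depth was 3334.5 UMIs in neutrophils and 4989 in T cells. Per cell, the combination hardly stood above T cells, with 619 UMIs in 286 neutrophils and 634 in 296 T cells. Single antibody A held 51 in 56 neutrophils and 308 in 559 T cells. Neutrophil Fcgr2b lay above NK cells or ILC1, at 10.3% of the macrophage level against 3.25% in isotype control and 8.85% against 2.35% in single antibody B. With the isotype control value below that of T cells, the ratio of 3.79 times (2.58 to 5.81) may carry background, and how far was not tested. Macrophage marker RNA in neutrophils was 1.44% of the macrophage level in isotype control and 1.34% in the combination, a value that the gate holds low here too, and Fcgr2b was at 10.3% and 45.1% of it. In T cells of the combination these values were 1.15% and 24.6%, and the part of free macrophage RNA in the neutrophil values was not tested. Fcgr1 in neutrophils was at 47.1, 34.8, 132 and 156, against 60.2, 49.2, 45.5 and 138 in T cells. It was below T cells in isotype control and single antibody A, and the single antibody B value rests on 16 UMIs. Fcgr1 and Fcgr2b were 2 of 5 members at least 1.5-fold higher in the combination, where 18.7% of 6469 genes stood higher and 25.6% lower. The isotype control neutrophils held only 212364 UMIs, and the count of members is not read as a result against so large a background. The summed level of 9 neutrophil markers in these cells was 555, 633, 766 and 347 UMIs per 10000, lowest in the combination, and its part in the receptor values was not tested.

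**Figure D2:**
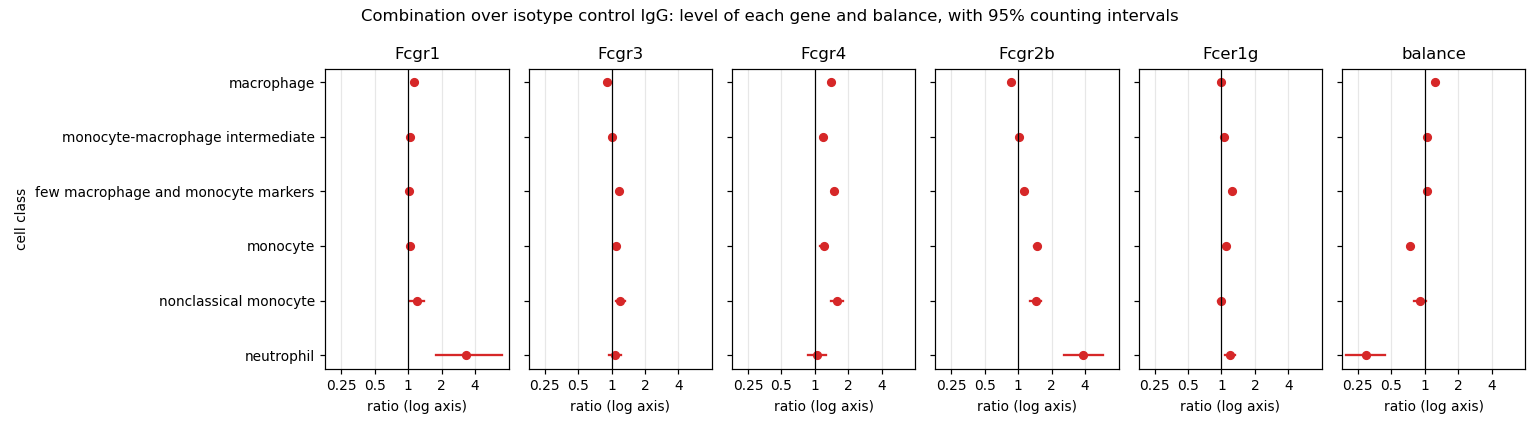
Ratio of the combination to isotype control IgG (log axis) for each gene and for the balance in 6 classes, with 95% counting intervals, where a point left of the line is lower in the combination. Fcgr2b lies at 0.866 in macrophages, 1.46 in monocytes and 3.79 in neutrophils, and the balance at 1.25, 0.742 and 0.293, where Fcgr2b of isotype control neutrophils is within background by the T cell measure.

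The activating-to-inhibitory balance was taken as UMIs of Fcgr1, Fcgr3 and Fcgr4 over UMIs of Fcgr2b. It is a balance of RNA, not of receptor protein or of receptors left free by an antibody against FcγRII. Its absolute value depends on the probes and only differences between classes or libraries are read. In macrophages the balance was 1.98, 2.34 (2.32 to 2.36), 1.84 (1.83 to 1.86) and 2.47 (2.45 to 2.49). The combination was thus 1.25 times (1.23 to 1.26) isotype control, 1.05 times (1.04 to 1.07) single antibody A and 1.34 times (1.33 to 1.36) single antibody B. Of the activating genes Fcgr4 differed most: with Fcgr4 alone over Fcgr2b the combination was 1.63 times isotype control, and with Fcgr3 alone 1.05 times.

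The same comparison ran opposite in monocytes and neutrophils, and this difference between classes was not tested. In monocytes the balance was 2.75 (2.65 to 2.85), 2.50 (2.40 to 2.60), 2.43 (2.32 to 2.55) and 2.04 (1.97 to 2.11), lowest in the combination, at 0.742 times (0.706 to 0.780) isotype control. In neutrophils it was 16.3 (11.0 to 24.0), 9.04 (6.77 to 12.1), 20.5 (11.8 to 35.8) and 4.77, the last from far more UMIs. The neutrophil values of isotype control and single antibody B divide by an Fcgr2b level within background. NK cells or ILC1 had a balance of 4.43 to 6.19, whose Fcgr2b is within background, and Cd209a DC one of 1.34 to 1.63. In the cells with few macrophage and monocyte markers, the balance was 1.46, 1.61, 1.32 and 1.52, and when they were pooled with monocytes, intermediates and macrophages, the combination came to 1.14 times isotype control. In the set-aside cells with markers of T cells and macrophages, it was 2.05, 2.48, 2.20 and 2.51, so single antibody B stood above isotype control, unlike in macrophages. In those with markers of NK cells and macrophages it was 2.11, 2.65, 2.03 and 2.76, in the same order as in macrophages.

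**Figure D3:**
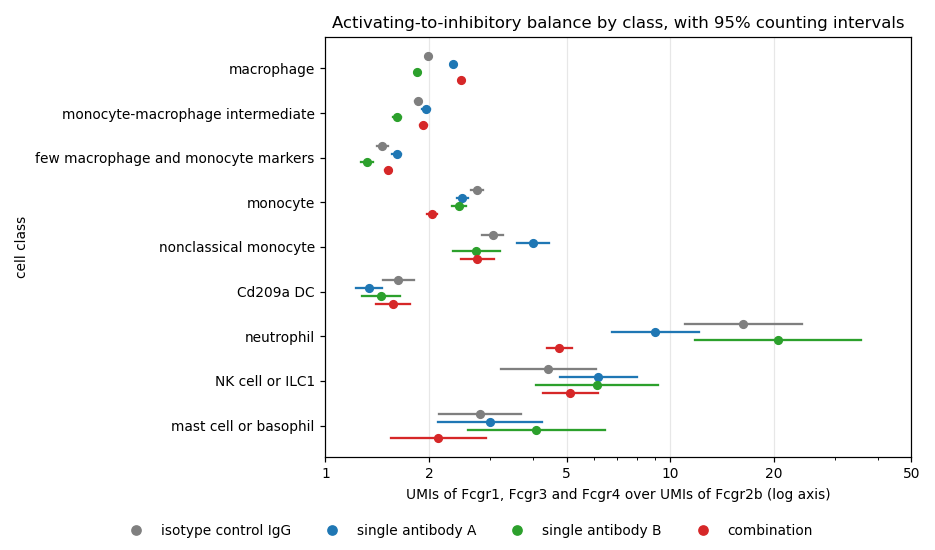
Balance of activating over inhibitory receptor UMIs (log axis) by class, 1 point per library with its 95% counting interval. Macrophages of the combination (2.47) and single antibody A (2.34) lie above the other two libraries, monocytes of the combination (2.04) lie below them, and neutrophils range from 4.77 to 20.5.

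In single macrophages the balance varied widely within every library. Among 12272 macrophages with at least 10 UMIs of the 4 receptors, the median share from activating receptors was 67.5% (quartiles 57.7% and 76.8%), 70.8% (61.3% and 80.0%), 65.5% (54.8% and 75.7%) and 72.1% (63.1% and 80.7%). All quartiles were higher in single antibody A and the combination than in the other two libraries, and the distributions overlapped broadly. More than 50% of the receptor UMIs were activating in 87.3%, 91.3%, 83.2% and 93.3% of these cells. Like the balance, these shares depend on the probes, so only their differences between libraries are read. At 2000 UMIs per cell, the expected share of macrophages with both Fcgr4 and Fcgr2b was 47.7%, 56.1%, 40.0% and 56.2%, that with Fcgr4 and no Fcgr2b 8.01%, 10.2%, 7.52% and 13.4%, and that with Fcgr2b and no Fcgr4 36.2%, 28.3%, 44.0% and 24.1%.

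**Figure D4:**
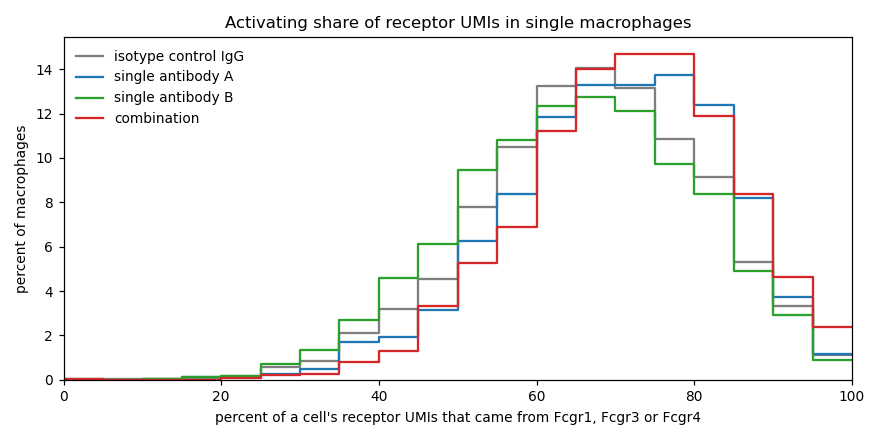
Distribution over single macrophages of the share of receptor UMIs that came from Fcgr1, Fcgr3 or Fcgr4 (percent, bins of 5), as a percent of the macrophages of each library with at least 10 receptor UMIs. The 4 curves overlap broadly, with medians of 67.5%, 70.8%, 65.5% and 72.1% in the order isotype control, single antibody A, single antibody B and combination.

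Fcgr1 and Fcgr4 are known targets of interferon-γ, which also induces the chemokine genes Cxcl9 and Cxcl10. Macrophages were divided into 4 quartile groups, over all libraries, by their UMIs of a list of 7 interferon-response genes per 10000. The list was Cxcl9, Cxcl10, Ifit1, Ifit2, Ifit3, Rsad2 and Isg15. It does not separate a response to interferon-γ from one to other interferons. From the lowest to the highest group, Fcgr4 went from 303 to 1027, from 333 to 1285, from 220.2 to 1032 and from 390.4 to 1000.1 in the 4 libraries. Fcgr1 in the highest group was at 1.98, 1.92, 2.36 and 1.89 times its level in the lowest. Fcgr3 in the highest group was at 0.946 to 1.09 times. Fcgr2b was at 1249 and 1241 in isotype control, while it was lower in the highest group for single antibody A (1068 against 1360), single antibody B (1149 against 1282) and the combination (979 against 1285).

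The libraries differed in how many macrophages fell into each group. The highest group held 18.6%, 31.4%, 14.4% and 41.8% of their macrophages, and the lowest 28.7%, 16.7%, 40.6% and 6.72%. Within the lowest group, the balance was 1.59, 1.56, 1.38 and 1.55, and the combination was at 0.978 times (0.941 to 1.02) isotype control. In group 2 it was at 1.09 times (1.07 to 1.12), in group 3 at 1.08 times and in the highest at 1.14 times (1.12 to 1.17). Within the highest group, Fcgr4 was at 0.974 times and Fcgr2b at 0.789 times isotype control. With the 4 groups weighted alike in every library, the combination came to 1.06 times isotype control in place of 1.25, Fcgr1 to 0.947 times in place of 1.11, and Fcgr4 to 1.095 times in place of 1.41. No list of another macrophage program was reweighted, and the shares of some are given below. Near the limits of the groups, within 10% of them, lay 327 to 385 of the 12455 cells.

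**Figure D5:**
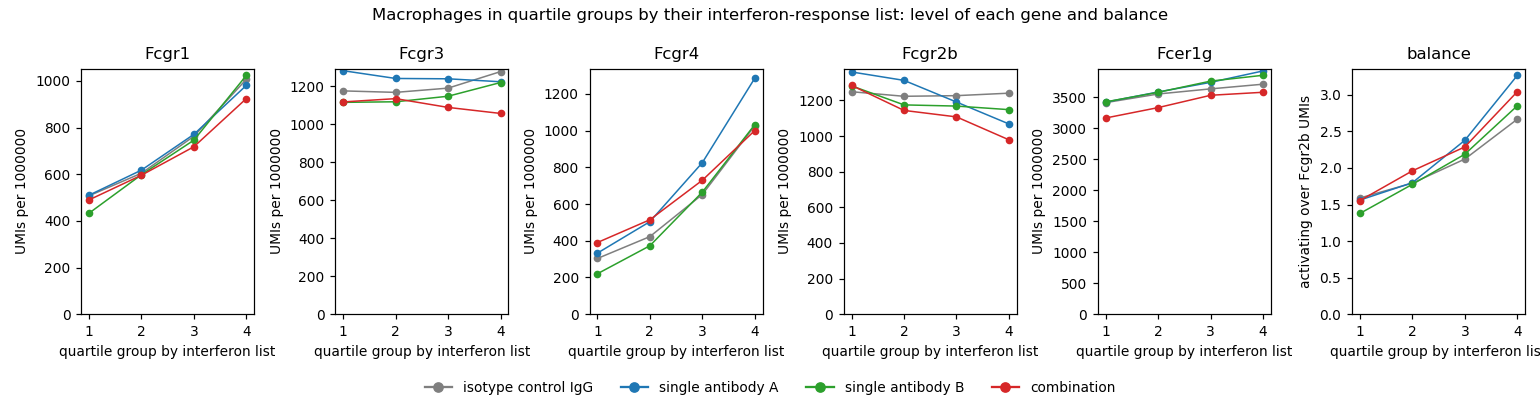
Level of each gene (UMIs per 1000000) and the balance in macrophages, in quartile groups by the interferon-response list (1 lowest, 4 highest), 1 line per library. Fcgr4 climbs from between 220.2 and 390.4 in group 1 to between 1000.1 and 1285 in group 4 in every library, and Fcgr1 in group 4 is at 1.89 to 2.36 times its level in group 1.

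The promoters of Fcgr1 and Fcgr4 are printed because these genes went with the interferon list. RefSeq windows from 250 bases before to 50 bases after the start site (GRCm38.p6) were matched for all 5 genes and searched on both strands for 3 motifs: the γ-activated site TTCNNNGAA, the interferon-stimulated pattern GAAA-NN-GAAA, where N is any base, and the core GAGGAA of PU.1, the factor of the myeloid lineage. The stretches shown end before the start site, with matches in capitals.
Fcgr1, chr3:96293980-96294119, minus strand: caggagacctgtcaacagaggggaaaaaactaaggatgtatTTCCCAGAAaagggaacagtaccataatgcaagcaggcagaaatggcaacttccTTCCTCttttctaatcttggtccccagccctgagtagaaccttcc
Fcgr4, chr1:171018776-171018915, plus strand: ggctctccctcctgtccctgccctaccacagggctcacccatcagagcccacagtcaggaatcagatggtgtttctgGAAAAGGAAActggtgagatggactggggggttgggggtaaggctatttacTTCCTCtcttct
Fcgr1 held 1 γ-activated site, which starts 109 bases before the start site, and Fcgr4 held 1 interferon-stimulated pattern, 73 bases before it. The windows of Fcgr2b, Fcgr3 and Fcer1g held neither. Of 32851 promoter windows, 8.30% held a γ-activated site and 3.44% an interferon-stimulated pattern. The PU.1 core was found once each in Fcgr1, Fcgr4 and Fcgr3, whose windows from both listed start sites hold it, and in 28.3% of all windows. No 2 of these motifs overlapped in the printed stretches.

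Other macrophage programs came with different receptor patterns, given as the highest quartile group over the lowest within each library. With the list of Arg1 and Spp1, Fcgr2b was at 1.56 to 1.90 times and Fcgr4 at 0.461 to 0.742 times, so that the balance was 0.465 to 0.547 times that of the lowest group in all 4 libraries. With Hmox1 and Gpnmb, genes of heme breakdown and lysosomal stress, Fcgr1 was at 0.595 to 0.688 times, Fcgr4 at 0.428 to 0.791 times and the balance at 0.576 to 0.725 times. With the list of MHC class II genes, Fcgr4 was at 3.37 to 4.68 times in isotype control and both single antibodies and at 1.82 times in the combination. The balance with this list was 1.05 to 1.48 times. The highest group by Arg1 and Spp1 held 20.4%, 19.4%, 25.7% and 36.4% of the macrophages of the 4 libraries. That by Hmox1 and Gpnmb held 22.1%, 25.5%, 23.0% and 31.2%, and that by MHC class II genes 25.6%, 32.7%, 11.2% and 35.7%. Nos2, which encodes inducible nitric oxide synthase, stood at 75.1, 198, 58.3 and 735 in the macrophages of the 4 libraries, and the balance in its highest group was 0.885 to 1.03 times that of the macrophages without a Nos2 UMI, which were 8679 of 12455 and thus no quartile group. Macrophages in the highest group of 5 genes of cell division were likewise set against the 4660 without a UMI of these genes. They stood lower for Fcgr2b (0.638 to 0.706 times), Fcgr3 (0.738 to 0.759 times) and Fcgr4 (0.603 to 0.728 times), and their balance was 1.09 to 1.21 times. Their median depth was 27209.5 UMIs, against 16132.5 in the cells without such a UMI.

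The other genes of the pathway are given from lists by role: 59 genes in 6 lists, of which 44 reached 20 UMIs per 1000000 in macrophages. In the combination, 5 of them stood at least 1.5-fold above isotype control and 1 at least 1.5-fold below, beside 3.44% and 3.04% of all genes, and the median ratio was 0.954 beside 0.929. Of the receptors that also use the Fcer1g chain, 3 of 4 stood higher: Clec4d, encoding a C-type lectin of the dectin-2 cluster, was at 215, 250.1, 292 and 585, or 2.72 times, Clec4e (Mincle) was 2.19 times and Clec4n (dectin-2) 2.07 times, while Pira2 was at 1.04 times. In the list of other Fc receptors and Fc receptor-like genes, Trim21, a cytosolic antibody receptor, was at 1.19 times. Fcrls, an Fc receptor-like gene and not read here as a receptor for IgG, was at 1142, 872, 1294 and 312, or 0.274 times, the lowest ratio of all 44. Fcgrt, the neonatal Fc receptor, was at 0.738 times. Of the kinases and adaptors, 1 of 15 passed 1.5-fold, Src (1.92 times), and Plcg2, a phospholipase downstream of Syk, had the lowest ratio (0.754 times). Syk itself was at 1.12 times. In the inhibitory list, 0 of 10 passed, from Inpp5d at 0.746 times to Pirb at 1.15 times. In the phagocytosis and oxidant list, 1 of 11 passed: Itgb2, the common β2 integrin chain, was at 1.59 times. Tyrobp, the other activating chain of these cells, was at 0.947 times.

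Over 30 profiles of class and library with at least 50 cells, from 9 classes, the level of each gene was compared with that of 8426 others. The profiles of a library share its depth and its free RNA, and these correlations of log2(level + 1) are descriptions. Among the genes most like Fcgr1 were Adap2 (r = 0.990) and Ms4a6d (0.972). Fcgr3 was most like Itgam (0.977), Hk3 (0.974) and Ncf1 (0.958), and Fcgr4 like Tlr13 (0.965), Slc15a3 (0.960) and Sirpb1c (0.954). Fcgr2b was most like Tbxas1 (0.974), Aif1 (0.968) and Sdc3 (0.968). Fcer1g was most like Tyrobp (0.987), followed by Tm6sf1 (0.966) and Tec (0.964). Among the members themselves, Fcgr1 and Fcgr2b were closest (0.948), and Fcer1g was nearer to Fcgr3 (0.920) than to Fcgr1 (0.664) or Fcgr4 (0.672).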

How the data were processed

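Viable CD45-positive cells were sorted, fixed, hybridized with Chromium Flex probes and sequenced. The deposited values are raw UMI counts of each gene in each barcode, made by the authors with Cell Ranger and not normalized. The submitters' processing notes name version 7.0.0 and build mm10, and the header of the matrices names 7.2.0. Doses, day, tumor size and number of mice are those of the sample records, and the article differs from them in part.

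Cells with at least 500 genes and at most 10% mitochondrial UMIs were kept. A lineage needed 5 of 9 T cell, 4 of 8 NK cell, 5 of 7 B cell or 5 of 9 neutrophil markers and at most 10 UMIs of the macrophage list per 10000. Macrophages needed 100 such UMIs per 10000, 5 of 9 markers and under 50 UMIs of the monocyte list per 10000, and monocytes 50 UMIs of the monocyte list per 10000 and at most 50 of the macrophage list; both had to lack other lineages. Limits were set after marker distributions were seen. An automatic doublet caller was not used. Cells past the gates of more than 1 such lineage, or of 1 and with many macrophage markers, were set aside. Monocyte and Cd209a DC markers were not limited in T cells, NK cells or neutrophils, so mixtures with those cells were not removed.

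Intervals are exact Poisson, conditional (Clopper-Pearson) or, for a balance, log intervals from counts. PCR and barcode errors are not covered. Shares at a fixed depth are expected values of drawing without replacement, and cells with fewer UMIs were left out. Computation used Python 3.11.15, numpy 2.4.6, scipy 1.17.1 and pandas 2.3.3 and was tested on simulated data.

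Members and lists were chosen with earlier results of these data known, and the 3 motifs, the reweighting by interferon genes and the pooled class after values were seen. Named are the 5 members, the genes at both ends of the ratios in each pathway list, and the 3 genes most like each member. Some genes that this rule names are not reported here. Clec4e, Clec4n, Fcgrt and Syk were named after their values were seen. Alternatives were a stricter gate, other cell filters, no cells of the highest depth, equal weight of cells, other definitions of the balance and other scaling. Equal weight was also taken without the cells under the 10th percentile of UMIs, which does not bring libraries to the same depth. The article's other experiments were not used here.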

Additional observations from a re-analysis of the deposited data

Results flagged for a closer look

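The combination and isotype control differed in opposite directions in different cell classes, which was not tested, since there was 1 library per group. The balance was at 1.25 times isotype control in macrophages, 0.742 times in monocytes and 0.293 times in neutrophils. Fcgr2b was at 0.866 times in macrophages, 1.46 times in monocytes and 3.79 times in neutrophils. In neutrophils of isotype control, Fcgr2b rested on 27 UMIs, a level of 127 against 130.3 in T cells. This is within background by the T cell measure, so that both neutrophil ratios may carry it. Per cell, the combination hardly stood above T cells either, with 619 UMIs of Fcgr2b in 286 neutrophils and 634 in 296 T cells. Fcgr3 was at 0.908 times in macrophages and 1.09 times in monocytes. Fcer1g was at 0.980 times in macrophages, 1.099 times in monocytes and 1.19 times in neutrophils. T cells of the combination held more RNA of all 5 genes than T cells of the other libraries, and the part of this in the values of monocytes and neutrophils was not tested.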

How the results depend on the processing

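No paired analysis was possible because each group has 1 library. Of 102 alternative values, 55 moved by less than the counting interval, 43 moved beyond it and 4 turned direction. The cause was not tested.

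The balance in macrophages, combination over isotype control, was 1.25. It came to 1.06 with interferon quartile groups weighted alike, 1.14 with monocytes, intermediates and cells with few markers pooled in, 1.30 as a geometric mean, 1.63 for Fcgr4 alone and 1.05 for Fcgr3 alone. Under the same 5 changes, single antibody A over isotype control came to 1.07, 1.15, 1.22, 1.51 and 1.06. Single antibody B over isotype control came to 0.907 under a stricter gate, 0.993 with groups weighted alike, 0.915 as a geometric mean, 0.857 for Fcgr4 and 0.970 for Fcgr3. The combination over single antibody A was 1.05 and turned to 0.986 both with groups weighted alike and for Fcgr3 alone. It came to 1.04 as a mean over cells without the shallowest cells and 1.08 for Fcgr4. The combination over single antibody B came to 1.37 under a stricter gate, and to 1.32 as a mean over cells, with or without the shallowest cells. It came to 1.06 with groups weighted alike, 1.42 as a geometric mean, 1.90 for Fcgr4 and 1.08 for Fcgr3.

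In monocytes, combination over isotype control, the balance came to 0.637 with at most 10 UMIs of the macrophage list per 10000 and to 0.819 for Fcgr4. In neutrophils it came to 0.0387 (0.00536 to 0.279) with at most 2 such UMIs, where isotype control held 1 UMI of Fcgr2b.

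Levels in macrophages, combination over isotype control, came under a stricter gate to 1.095 for Fcgr1, 0.851 for Fcgr2b, 0.895 for Fcgr3, 1.35 for Fcgr4 and 0.990 for Fcer1g. With groups weighted alike, Fcgr1 turned to 0.947, and Fcgr2b came to 0.914, Fcgr4 to 1.095 and Fcer1g to 0.951. With size factors Fcer1g turned to 1.06, and Fcgr1 came to 1.21, Fcgr2b to 0.938, Fcgr3 to 0.983 and Fcgr4 to 1.53. Fcgr4 also came to 1.38 without the deepest cells and 1.35 as a mean over cells. As a mean over cells without the shallowest cells, Fcgr4 came to 1.36 and Fcer1g to 0.974. The weighting, the pooling and both limits on the macrophage list were chosen after seeing the data.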
